A study of Mus musculus with 2 samples.

Results

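The 7 genes described here are p53 targets and cell-cycle inhibitors: *Cdkn1a*, *Cdkn2b*, *Bbc3*, *Aen*, *Phlda3*, *Mdm2* and *Ccng1*. They were chosen by symbol from the 19465 genes of the deposited matrices, and each symbol matched 1 gene there. Their transcripts were counted in skin sections from SKH-1 mice, which lack a normal hair coat and are used in photobiology. All mice were female and 10 to 12 weeks old. The assay was Visium, in which transcripts are captured at barcoded spots under a tissue section and counted as unique molecular identifiers (UMIs). The 4 sections were ultraviolet-irradiated (UVR) skin that had received 9-cis HPR at 0.03%, UVR skin that had received retinol at 0.1%, UVR skin with neither agent, and normal skin, which the labels also call control. The number of mice behind each section is not given in the sources used here. The concentrations of both agents differ, and neither the UVR dose nor the time of sampling is given in the sources used here. Each group had 1 section, so the spread between animals could not be measured and no test was possible. Intervals below are exact 95% intervals for counting error only.

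When DNA is damaged, as by ultraviolet light, the transcription factor p53 is stabilised and switches on genes that halt the cell cycle, repair DNA or start cell death. *Mdm2* encodes the ubiquitin ligase that marks p53 for destruction and is itself a p53 target, which closes a feedback loop. In skin, keratinocytes of the epidermis absorb most ultraviolet B light, and cell-cycle inhibitors are also used there without damage, as keratinocytes stop dividing and differentiate.

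Upper or lower position on a capture area decides the group of each section, and upper was read as the upper part of the image. The spot grid of both areas runs the opposite way. Reading the grid instead exchanges UVR with control skin, and retinol-treated with HPR-treated skin. The files do not settle which reading was meant, so every direction below holds for the image reading alone. UVR and control skin shared a capture area, and both treated sections shared another, so treatment and capture area cannot be told apart where a treated section is set against UVR skin. The same UVR section enters the UVR over control, retinol over UVR and HPR over UVR ratios, so these ratios are not independent of one another.

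After spots with fewer than 200 UMIs were left out, the sections kept 339 to 647 spots and 326095 to 2558616 UMIs, with control skin the shallowest and UVR skin the deepest. The median kept spot held 653 UMIs in HPR-treated skin, 982 in retinol-treated skin, 1641 in UVR skin and 527 in control skin. Each section was divided into 3 layers by clustering its spots without the genes of the lists used here. A keratinocyte-rich outer layer gave 73.6% of UMIs in HPR-treated skin, 61.1% in retinol-treated skin, 64.8% in UVR skin and 59.3% in control skin. A deep layer and a muscle layer supplied the rest. Collagen, lipid and macrophage genes led regions of the deep layer, but it also held many keratinocyte transcripts. The deep level of the keratin gene *Krt5* was 81.9% of its outer level in HPR-treated skin and 101% in retinol-treated skin. It was 120% in UVR skin and 56.7% in control skin, so deep values are not those of dermis alone. At the clustering resolution used, the outer layer held a region led by *Lor*, a cornified envelope gene, in all 4 sections. It held a further region in all but control skin. All 10 keratinocyte markers were detected in every section, while 5 of 6 hair follicle markers or more were at 0 in the irradiated sections. A spot covers several cells, so fewer cells of a type and less RNA per cell cannot be told apart.

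The promoters of these genes were read from RefSeq (GRCm38.p6) as the 250 bases before each annotated start, because p53 binds a consensus element made of a pair of joined decamers. A single decamer that matched the consensus on all positions occurred in 7.13% of 32851 such windows of all genes. A joined pair with at most 1 mismatch occurred in 25 windows, or 0.0761%, and 2 of these belonged to *Cdkn1a* and *Ccng1*. The allowance of 1 mismatch was set after the *Cdkn1a* sequence had been seen. Single decamers also occurred at the second start of *Aen* and at the start of *Mdm2*. These 4 windows are the members' windows that hold a joined pair (*Cdkn1a* and *Ccng1*) or only a single decamer (*Aen* and *Mdm2*). They are shown with the matching bases in capitals. The *Cdkn1a* window is chr17:29090729-29090978 on the plus strand, the *Ccng1* window chr11:40755287-40755536 on the minus strand, the *Aen* window chr7:78895808-78896057 on the plus strand and the *Mdm2* window chr10:117710759-117711008 on the minus strand.
Cdkn1a: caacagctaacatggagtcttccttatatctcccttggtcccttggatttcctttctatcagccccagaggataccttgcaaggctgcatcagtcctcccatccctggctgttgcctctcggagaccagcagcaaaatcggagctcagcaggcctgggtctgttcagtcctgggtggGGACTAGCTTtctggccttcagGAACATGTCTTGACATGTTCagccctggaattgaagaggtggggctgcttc
Ccng1: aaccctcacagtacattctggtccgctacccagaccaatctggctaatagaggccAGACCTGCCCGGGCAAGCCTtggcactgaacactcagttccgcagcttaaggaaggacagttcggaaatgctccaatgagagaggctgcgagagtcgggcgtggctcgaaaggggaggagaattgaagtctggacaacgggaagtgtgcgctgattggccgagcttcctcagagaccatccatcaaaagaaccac
Aen: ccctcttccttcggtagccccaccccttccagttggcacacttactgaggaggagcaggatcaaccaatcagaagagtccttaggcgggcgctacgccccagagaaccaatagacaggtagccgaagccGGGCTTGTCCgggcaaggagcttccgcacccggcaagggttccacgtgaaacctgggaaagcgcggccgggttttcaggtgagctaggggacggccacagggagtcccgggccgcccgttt
Mdm2: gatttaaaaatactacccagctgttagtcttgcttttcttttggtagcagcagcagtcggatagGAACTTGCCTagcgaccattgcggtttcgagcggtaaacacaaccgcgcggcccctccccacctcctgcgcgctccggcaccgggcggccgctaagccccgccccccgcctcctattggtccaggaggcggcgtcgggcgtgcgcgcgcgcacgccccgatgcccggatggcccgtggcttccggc

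In the *Cdkn1a* window the joined pair began 51 bases before the start, and a further single decamer began 73 bases before it. In the *Ccng1* window the pair began 195 bases before the start. The decamer lay 121 bases before the second *Aen* start and 186 bases before the *Mdm2* start. No decamer matched in the windows of *Cdkn2b*, *Phlda3* or *Bbc3*, at the first *Aen* start or at the second *Cdkn1a* start, which says nothing of elements outside these windows. The motif GGGCGG, on either strand, occurred in 32.7% of all windows, and in those of *Phlda3*, *Mdm2*, all 3 *Bbc3* starts, the second *Aen* start and the second *Cdkn1a* start.

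UVR skin was set against control skin to ask what irradiation changed. The members did not move as a block: *Phlda3* and *Aen* stood at least 2-fold above control skin, *Cdkn2b* at least 2-fold below it, and *Cdkn1a* differed by less. A gene was measured in a comparison if both sections together held at least 100 UMIs, which 6 members did. Of these, 2 were at least 2-fold higher, against 12.4% of the 2510 genes measured, and 1 was at least 2-fold lower, against 7.61%. *Ccng1* did not reach 100 UMIs in this or any comparison. In retinol over control the whole-section intervals of all 6 members included 1. In HPR over control those of 4 did, the exceptions being *Cdkn1a* at 0.916 (0.862 to 0.973) and *Phlda3* at 1.42 (1.07 to 1.92). Control skin held only 42 to 57 UMIs of *Phlda3*, *Aen*, *Bbc3* and *Mdm2*, and shares over all genes are not given for these intervals. By layer, retinol over control left out 1 for *Cdkn1a* and *Cdkn2b*. The values were 1.10 and 0.772 in the outer layer and 0.727 and 1.66 in the deep layer. The deep layer in HPR over control gave 0.596 for *Cdkn1a* and 2.22 (1.27 to 4.15) for *Bbc3*, on 15 UMIs in control skin. The outer layer gave 0.927 for *Cdkn1a* and 0.722 for *Cdkn2b*, with intervals that leave out 1. Among the layers, *Phlda3* left out 1 in muscle alone, at 3.7 (1.49 to 11.9), on 5 UMIs in control skin. The *Phlda3* intervals in the outer layer (ratio 1.19) and the deep layer (ratio 1.17) included 1. In retinol over UVR, *Cdkn2b* and *Bbc3* were at least 2-fold higher (2 of 6 members, against 4.23% of 2932 genes) and *Phlda3* at least 2-fold lower (1 of 6, against 9.11%). In HPR over UVR, the higher genes were again *Cdkn2b* and *Bbc3* (2 of 6, against 3.41% of 2813 genes), and the lower ones *Phlda3* and *Aen* (2 of 6, against 9.21%). With 6 members, a single gene makes a large share, so these counts are descriptions.

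**Figure D1:**
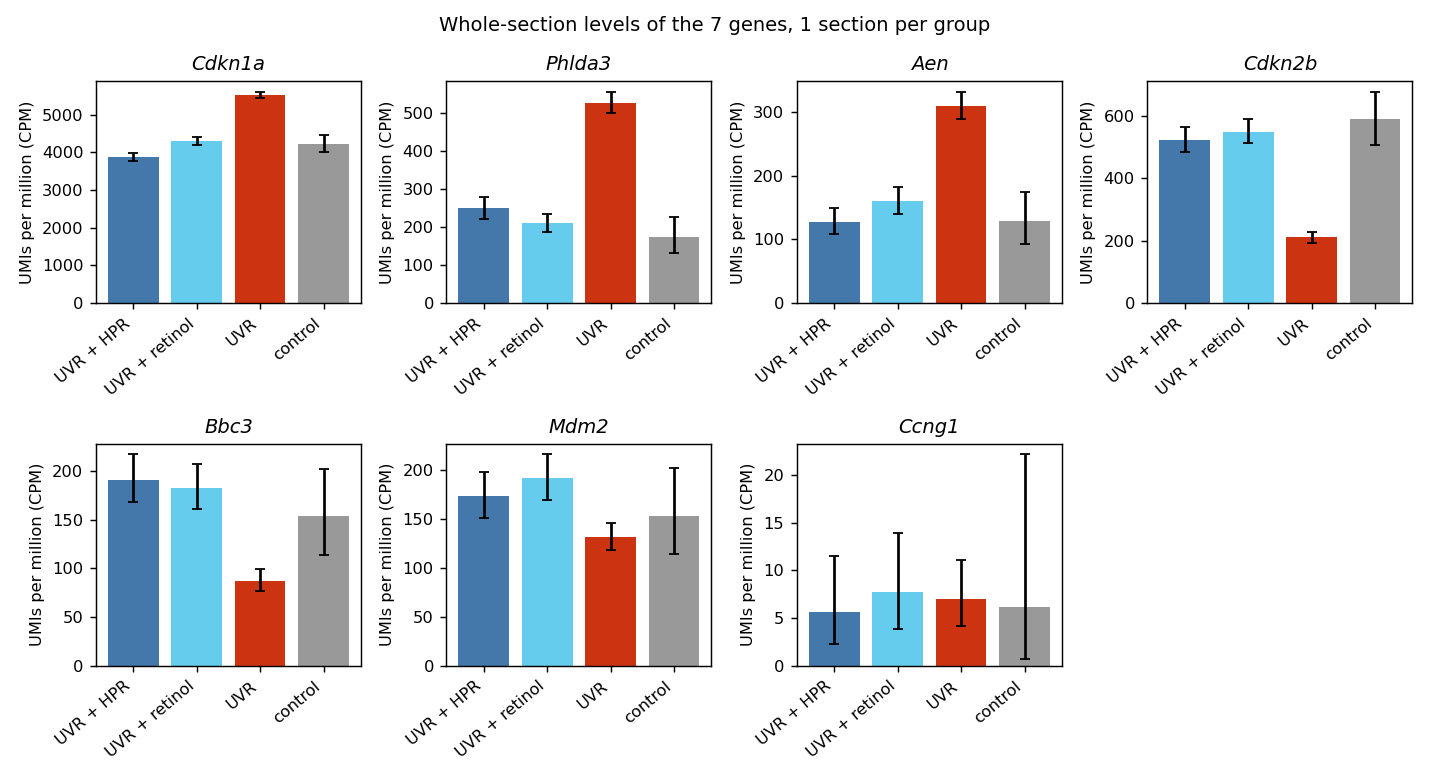
Whole-section level of each of the 7 genes in UMIs per 1000000 UMIs (CPM), with 1 bar per section and exact Poisson 95% intervals for counting error; each panel has its own vertical axis from 0. UVR skin stands highest for *Cdkn1a* (5515 CPM), *Phlda3* (527 CPM) and *Aen* (310 CPM) and lowest for *Cdkn2b* (211 CPM) and *Bbc3* (87.6 CPM), and the *Ccng1* intervals overlap in all sections.

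*Cdkn1a* (chr17:29090979-29100722) encodes an inhibitor of cyclin-dependent kinases and is the best known arrest gene under p53. Levels are in CPM, UMIs of the gene per 1000000 UMIs of the section or layer. Summed over whole sections it had 3863 CPM in HPR-treated skin, 4303 CPM in retinol-treated skin, 5515 CPM in UVR skin and 4220 CPM in control skin. UVR skin was the highest, retinol-treated and control skin did not differ beyond their counting intervals, and HPR-treated skin was the lowest. UVR over control was 1.31 (1.24 to 1.38), retinol over UVR 0.780 (0.757 to 0.804) and HPR over UVR 0.701 (0.678 to 0.724). These intervals are narrow because the gene had 26404 UMIs in all, and none of the ratios reached 2-fold. *Cdkn1a* was abundant in control skin too, where 1376 UMIs were counted.

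The layers gave a wider contrast for *Cdkn1a*. In the outer layer it had 4494 CPM in HPR-treated skin, 5330 CPM in retinol-treated skin, 7362 CPM in UVR skin and 4851 CPM in control skin, so UVR over control was 1.52 (1.42 to 1.62). In the deep layer the levels were 2610, 3184, 2987 and 4380 CPM in HPR-treated, retinol-treated, UVR and control skin, and UVR over control was 0.682 (0.611 to 0.762). Control skin was thus the highest section in the deep layer and UVR skin the highest in the outer layer. In muscle, HPR-treated skin had 1195 CPM, retinol-treated skin 796 CPM, UVR skin 467 CPM and control skin 937 CPM, with UVR skin the lowest. Outer-layer over muscle levels of *Cdkn1a* were 3.76 in HPR-treated skin, 6.69 in retinol-treated skin, 15.8 in UVR skin and 5.18 in control skin.

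Within the outer layer, *Cdkn1a* was higher in the *Lor*-led region than in the other outer region of the same section. That ratio was 1.64 (1.54 to 1.75) in HPR-treated skin, 1.31 (1.24 to 1.39) in retinol-treated skin and 1.38 (1.33 to 1.44) in UVR skin. *Lor* is a late differentiation gene, and the other outer regions were led by genes such as *Wnt3*, *Ajuba* and *Wnt7b*. Within the *Lor*-led regions alone, UVR over control was 1.71 (1.60 to 1.83), retinol over UVR 0.760 (0.723 to 0.799) and HPR over UVR 0.677 (0.647 to 0.708). At the clustering resolution used, the *Lor*-led region of control skin is its whole outer layer. These ratios against control therefore set part of the outer layer against all of it. A higher resolution split the outer layer of control skin into a *Lor*-led region of 75 spots and other regions of 43 and 14 spots. Ratios at that resolution are not given here.

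**Figure D2:**
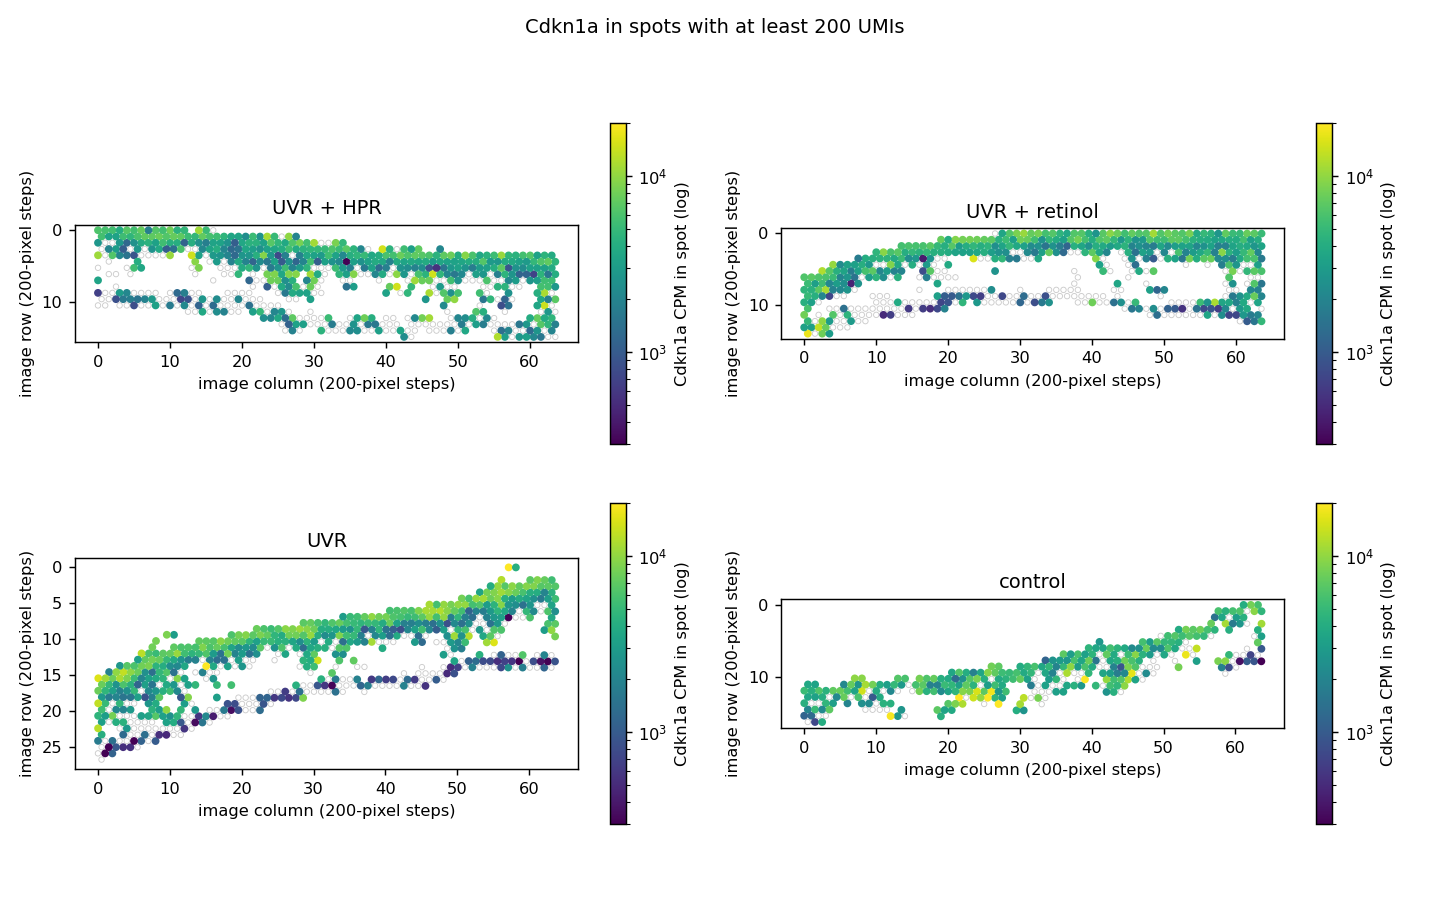
Map of *Cdkn1a* in every spot with at least 200 UMIs, by section, at its place in the image (both axes in steps of 200 pixels); colour gives the spot's CPM on a log scale and open circles are spots without a *Cdkn1a* UMI. In UVR skin the high spots form a band along the outer edge, where the summed level was 7362 CPM, and the inner strip of muscle is low, at 467 CPM; control skin shows a smaller contrast, 4851 against 937 CPM.

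*Cdkn2b* (chr4:89306289-89311032) encodes an inhibitor of Cdk4 and Cdk6 that is better known as a target of transforming growth factor beta than of p53. It had 522 CPM in HPR-treated skin, 550 CPM in retinol-treated skin, 211 CPM in UVR skin and 589 CPM in control skin. UVR skin was low and the other 3 sections did not differ beyond their counting intervals. The ratios were 0.358 (0.303 to 0.425) for UVR over control, 2.60 (2.33 to 2.91) for retinol over UVR and 2.48 (2.21 to 2.78) for HPR over UVR. Retinol over control was 0.934 (0.796 to 1.10) and HPR over control 0.887 (0.754 to 1.05). HPR over UVR was 1.62 (1.35 to 1.94) on the left image side, under 2-fold, and 3.40 (2.91 to 3.96) on the right.

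The larger *Cdkn2b* difference lay in the keratinocyte-rich layer. Outer levels were 602 CPM in HPR-treated skin, 643 CPM in retinol-treated skin, 224 CPM in UVR skin and 833 CPM in control skin, with UVR over control at 0.269 (0.223 to 0.325). The deep-layer value was 0.941 (0.624 to 1.47), on 27 UMIs in control skin. Retinol over UVR was 2.87 (2.52 to 3.29) in the outer layer and 1.77 (1.44 to 2.18) in the deep layer, and HPR over UVR was 2.69 (2.35 to 3.08) and 1.61 (1.24 to 2.09). Muscle held 4 to 7 *Cdkn2b* UMIs in each section. The level in the *Lor*-led region over that in the other outer region was 0.886 (0.747 to 1.05) in HPR-treated skin, 0.731 (0.603 to 0.882) in retinol-treated skin and 0.891 (0.723 to 1.10) in UVR skin. Both cell-cycle inhibitors among the members thus took opposite directions in UVR over control within the outer layer, *Cdkn1a* at 1.52 and *Cdkn2b* at 0.269.

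*Bbc3* (chr7:16308398-16318334) encodes Puma, a protein that triggers mitochondrial cell death and is induced by p53. It had 191 CPM in HPR-treated skin, 183 CPM in retinol-treated skin, 87.6 CPM in UVR skin and 153 CPM in control skin. UVR skin was again low, and the other 3 sections did not differ beyond their intervals. UVR over control was 0.571 (0.419 to 0.792), retinol over UVR 2.09 (1.74 to 2.51) and HPR over UVR 2.18 (1.81 to 2.63). On the left image side alone UVR over control was 0.854 (0.529 to 1.45), an interval that includes 1, and on the right side 0.402 (0.265 to 0.626). HPR over UVR was 1.36 (1.02 to 1.79) on the left and 3.27 (2.52 to 4.25) on the right, and retinol over UVR 1.73 on the left and 2.49 on the right.

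*Bbc3* had another layout than *Cdkn1a*. In the deep layer it had 365 CPM in HPR-treated skin, 266 CPM in retinol-treated skin, 150 CPM in UVR skin and 165 CPM in control skin. In the outer layer the levels were 161, 158, 76.6 and 176 CPM in the same order of sections. The deep layer was higher than the outer layer in the 3 irradiated sections, by ratios whose inverse, outer over deep, was 0.441 in HPR-treated skin, 0.595 in retinol-treated skin and 0.512 in UVR skin, while control skin was at 1.07 (0.566 to 2.11). Within the outer layer *Bbc3* was lower in the *Lor*-led region than in the other outer region, at 0.302 (0.198 to 0.448) in HPR-treated skin, 0.530 (0.341 to 0.801) in retinol-treated skin and 0.511 (0.353 to 0.737) in UVR skin. *Cdkn1a* showed the reverse order in these regions of the same sections. In spots with fewer than 200 UMIs, which are outside all other values, *Bbc3* stood at 316 CPM in HPR-treated skin, 501 CPM in retinol-treated skin, 142 CPM in UVR skin and 318 CPM in control skin, on 4 to 13 UMIs. The part of spot depth in the *Bbc3* ratios was not tested.

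*Aen* (chr7:78895927-78911209) encodes a nuclease that is induced by p53 and promotes cell death. It had 128 CPM in HPR-treated skin, 160 CPM in retinol-treated skin, 310 CPM in UVR skin and 129 CPM in control skin. UVR skin stood alone at the top. Ranked by level below it, retinol-treated, control and HPR-treated skin did not each differ from the next beyond the counting intervals. The ratios were 2.41 (1.76 to 3.37) for UVR over control, 0.518 (0.445 to 0.601) for retinol over UVR and 0.413 (0.346 to 0.490) for HPR over UVR. HPR over UVR was 0.516 (0.399 to 0.662) on the left image side and 0.349 (0.271 to 0.443) on the right, so the left side alone fell just short of 2-fold. Outer-layer ratios were 3.31 (2.10 to 5.54) for UVR over control, 0.470 (0.385 to 0.569) for retinol over UVR and 0.318 (0.253 to 0.396) for HPR over UVR. The deep layer gave 3.41 (1.69 to 8.02) for UVR over control.

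In muscle, *Aen* did not show this pattern. Its muscle levels were 265 CPM in HPR-treated skin, 271 CPM in retinol-treated skin, 250 CPM in UVR skin and 360 CPM in control skin, on 15 to 78 UMIs, and the 4 intervals overlapped. The muscle level was 256% of the outer level in HPR-treated skin, 178% in retinol-treated skin, 76.8% in UVR skin and 367% in control skin. Muscle spots also held keratinocyte transcripts, with *Krt5*, a basal keratin, at 1.87% to 7.42% of its outer level and *Krt14*, another, at 1.33% to 11.9%. The part of transcripts from neighbouring layers in the muscle values was not tested.

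*Phlda3* (chr1:135766085-135769134) encodes a p53-induced protein that restrains Akt, a kinase that favours cell survival. It had 249 CPM in HPR-treated skin, 210 CPM in retinol-treated skin, 527 CPM in UVR skin and 175 CPM in control skin. UVR skin was the highest by a wide margin, HPR-treated skin lay slightly above retinol-treated skin, and retinol-treated and control skin did not differ beyond their intervals. UVR over control was 3.01 (2.31 to 4.0), retinol over UVR 0.399 (0.350 to 0.452) and HPR over UVR 0.473 (0.416 to 0.535). On the image sides UVR over control was 1.80 (1.27 to 2.63) and 4.68 (3.10 to 7.42) on the right, and HPR over UVR was 0.616 (0.508 to 0.744) on the left and 0.404 (0.340 to 0.477) on the right. Both left-side values were under 2-fold.

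*Phlda3* was higher in UVR than control skin in both outer and deep layers. Outer levels were 246 CPM in HPR-treated skin, 222 CPM in retinol-treated skin, 638 CPM in UVR skin and 207 CPM in control skin, with UVR over control at 3.08 (2.25 to 4.34). The deep-layer value was 2.89 (1.62 to 5.68), on 12 UMIs in control skin. In muscle the order of sections was another: 444 CPM in HPR-treated skin, 280 CPM in retinol-treated skin, 208 CPM in UVR skin and 120 CPM in control skin, on 5 to 65 UMIs. HPR over UVR was 2.13 (1.45 to 3.12) in muscle and 0.385 (0.332 to 0.445) in the outer layer. The ratio between the *Lor*-led and the other outer region had intervals that include 1 in all 3 sections with both, from 0.759 to 0.945.

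*Mdm2* (chr10:117688875-117710758) differed less between sections than *Phlda3*, *Aen*, *Cdkn2b* or *Bbc3*. It had 173 CPM in HPR-treated skin, 192 CPM in retinol-treated skin, 131 CPM in UVR skin and 153 CPM in control skin. Ranked by level, from retinol-treated over HPR-treated and control to UVR skin, no section differed from the next beyond the counting intervals. The ratios were 0.857 (0.635 to 1.18) for UVR over control, 1.46 (1.24 to 1.72) for retinol over UVR and 1.32 (1.10 to 1.57) for HPR over UVR. HPR over UVR was 1.94 (1.38 to 2.72) in the deep layer and 1.21 (0.969 to 1.5) in the outer layer.

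*Ccng1* (chr11:40748552-40755309) encodes cyclin G1, a p53 target that acts on Mdm2. It was close to the limit of detection, with 7 UMIs in HPR-treated skin, 11 in retinol-treated skin, 18 in UVR skin and 2 in control skin. The levels were 5.60, 7.77, 7.03 and 6.13 CPM, and 0 UMIs would have allowed up to 1.17 CPM in UVR skin and 9.20 CPM in control skin. UVR over control was 1.15 with an interval from 0.275 to 10.2, so a difference was not detectable at this depth. Muscle held 3 of the 7 UMIs in HPR-treated skin, 8 of 11 in retinol-treated skin, 8 of 18 in UVR skin and 0 of 2 in control skin.

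**Figure D3:**
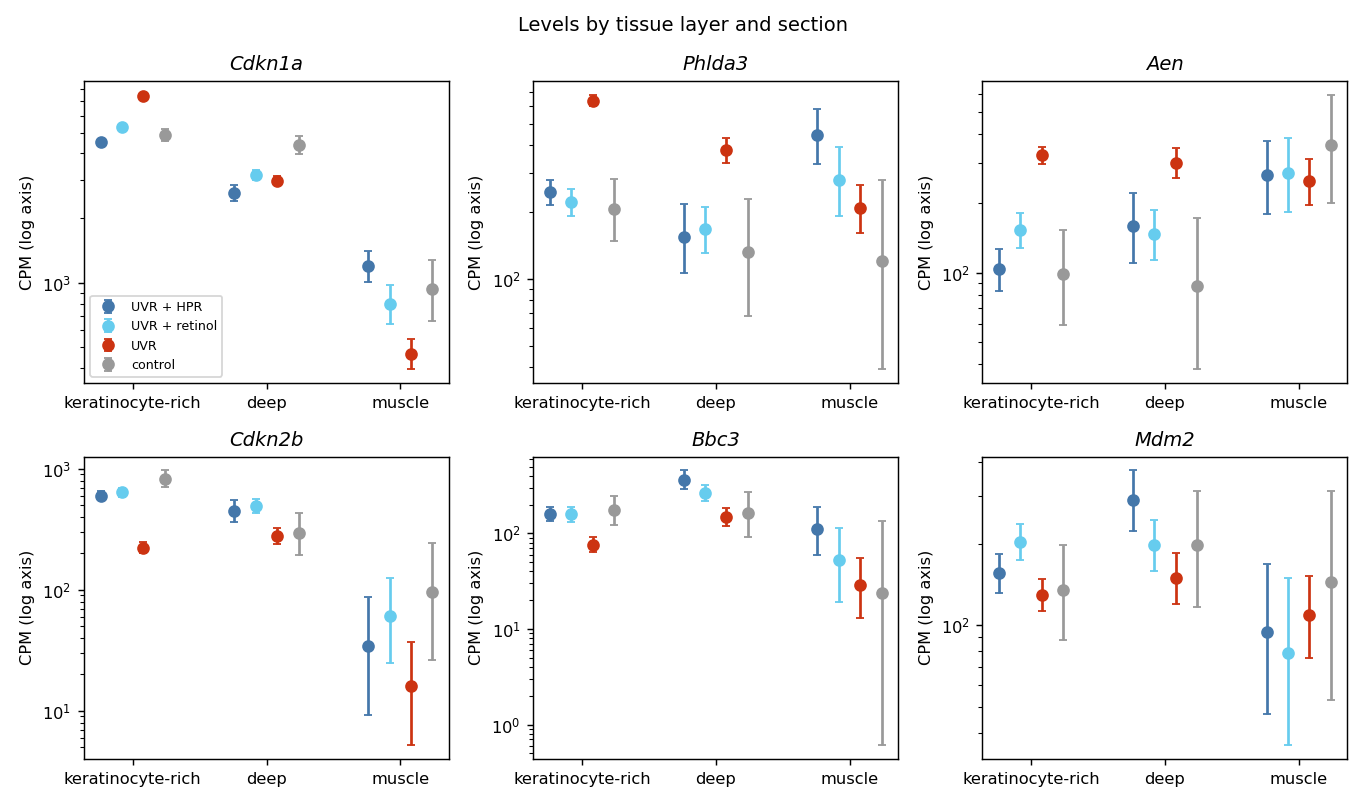
Level of 6 genes in CPM on a log axis, by layer and section, with exact Poisson 95% intervals for counting error. In the keratinocyte-rich layer UVR skin is highest for *Cdkn1a*, *Phlda3* and *Aen* and lowest for *Cdkn2b* and *Bbc3*; in muscle, *Phlda3* is highest in HPR-treated skin (444 CPM) and the *Aen* intervals overlap.

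HPR-treated and retinol-treated skin lay on the same capture area, at different concentrations. None of the 6 members measured was 2-fold higher or lower, against 0.852% and 1.84% of 2231 genes. HPR over retinol was 0.898 (0.865 to 0.933) for *Cdkn1a*, 0.95 (0.855 to 1.06) for *Cdkn2b*, 1.04 (0.873 to 1.25) for *Bbc3*, 0.798 (0.648 to 0.981) for *Aen*, 1.19 (1.01 to 1.39) for *Phlda3* and 0.902 (0.751 to 1.08) for *Mdm2*. Intervals that leave out 1 were those of *Cdkn1a*, *Aen* and *Phlda3*, and they cover counting error only. The share of all genes with such intervals is not given. Over all genes measured the median log2 ratio was -0.09, and scaling by it took *Cdkn1a* from -0.16 to -0.07. In the outer layer the values were 0.843 (0.808 to 0.880) for *Cdkn1a*, 0.677 (0.514 to 0.888) for *Aen* and 0.764 (0.609 to 0.958) for *Mdm2*, while *Phlda3* was at 1.11 (0.909 to 1.35). None of the 6 members was 2-fold apart there either, against 0.69% of 1594 genes higher and 1.63% lower. In the deep layer *Mdm2* turned the other way, at 1.47 (1.04 to 2.06).

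**Figure D4:**
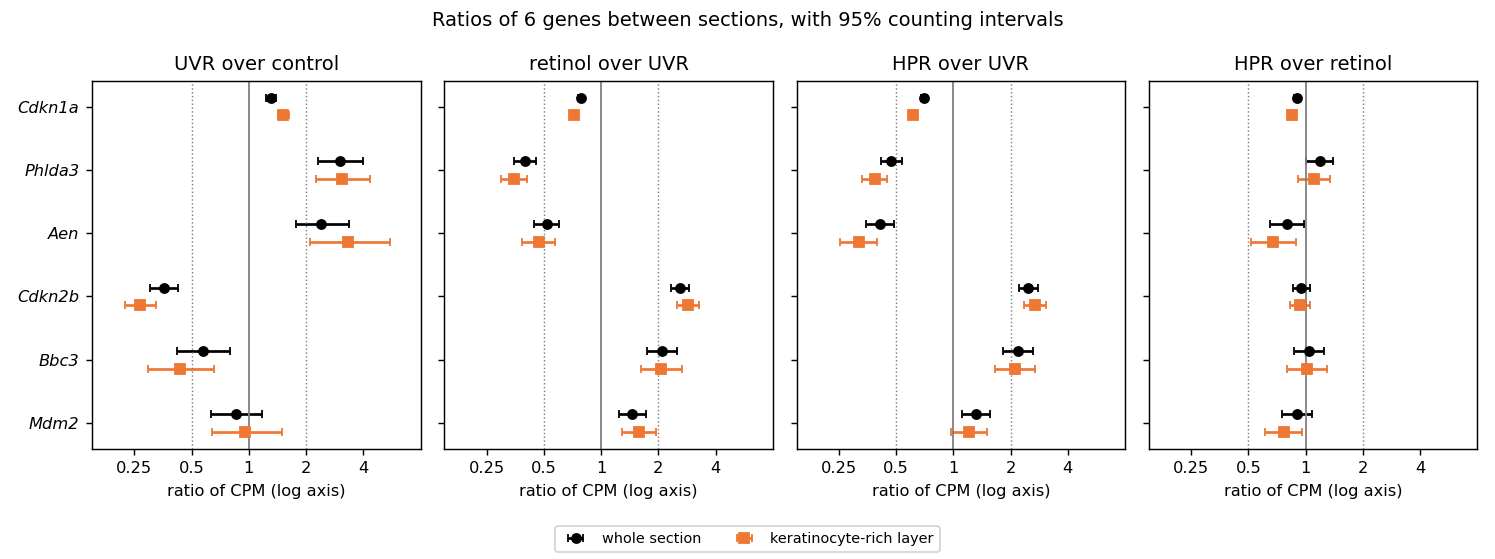
Ratios of CPM between sections for 6 genes on a log axis, for whole sections (circles) and the keratinocyte-rich layer (squares), with exact 95% counting intervals; dotted lines mark 2-fold. *Phlda3* and *Aen* lie right of 2-fold in UVR over control (3.01 and 2.41) and *Cdkn2b* left of it (0.358); the retinol over UVR and HPR over UVR panels show these genes on the opposite sides of 1, and all HPR over retinol points lie within the dotted lines.

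Within the outer layer the counts of called members grew slightly. In UVR over control 2 of 6 were higher, *Phlda3* and *Aen*, against 16.8% of 1705 genes, and 2 were lower, *Cdkn2b* and *Bbc3*, against 7.62%. *Bbc3* stood at 0.435 (0.296 to 0.656) there. Retinol over UVR had 2 higher, *Cdkn2b* and *Bbc3*, against 6.08% of 2008 genes, and 2 lower, *Phlda3* and *Aen*, against 10.3%. HPR over UVR had the same names on the same sides, against 4.21% of 1995 genes higher and 9.37% lower. In the outer layer, depth and marker levels moved with these groups: the 10 keratinocyte markers summed to 57710 CPM in HPR-treated skin, 53532 CPM in retinol-treated skin, 82656 CPM in UVR skin and 110962 CPM in control skin. The 8 macrophage and dendritic markers summed to 171, 101, 30.1 and 688 CPM in the same order, with *Lyz2*, *Adgre1* and *Itgax* at 0 in the outer layer of all 4 sections. Their part in the results was not tested.

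The deep layer repeated part of this. In UVR over control, 2 of 6 members were at least 2-fold higher, *Aen* and *Phlda3*, against 18.2% of 1077 genes, and 0 were lower, against 8.26%. Retinol over UVR had 0 higher, against 3.89% of 1413 genes, and 2 lower, *Phlda3* and *Aen*, against 6.65%. HPR over UVR had *Bbc3* higher, at 2.44 (1.78 to 3.35), against 4.07% of 1180 genes, and *Phlda3* lower, at 0.406 (0.273 to 0.587), against 9.49%. HPR over retinol had 0 of 5 measured members on either side, against 1.97% of 964 genes higher and 2.8% lower. The deep layer also carried keratinocyte transcripts: *Krt5* there was 81.9% of its outer level in HPR-treated skin, 101% in retinol-treated skin, 120% in UVR skin and 56.7% in control skin.

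Muscle spots gave few UMIs of the members, and 1 to 3 of them could be measured. *Cdkn1a* was the only member measured in UVR over control, and it was at least 2-fold lower, at 0.499 (0.348 to 0.730), against 4.18% of 407 genes lower and 13.3% higher. The 27 muscle spots of control skin held all 39 UMIs of the 6 hair follicle markers in that section, or 937 CPM, while muscle of UVR skin held 0, and their part in this ratio was not tested. Retinol over UVR had 0 of 2 on either side, against 8.3% of 494 genes higher and 4.45% lower. HPR over UVR had 2 of 3 higher, *Cdkn1a* at 2.56 (2.01 to 3.25) and *Phlda3* at 2.13, against 21.8% of 514 genes, and 0 lower, against 12.1%. The only member measured in HPR over retinol was *Cdkn1a*, at 1.5 (1.15 to 1.98), and it was called on neither side, against 4.11% of 316 genes higher and 2.22% lower. In HPR over UVR, the share of all genes at least 2-fold higher was larger in muscle (21.8%) than in the outer (4.21%) or deep layer (4.07%).

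Other p53 targets were read from a list of 33 genes, of which 31 were among the features. In UVR over control 9 had enough UMIs, 2 were at least 2-fold higher and 0 lower, where 12.4% of all genes measured were higher and 7.61% lower. The list's median log2 ratio was 0.69, against 0.09 over all genes measured. The higher genes were *Dcxr*, a carbonyl reductase, with 288 CPM in UVR skin and 114 CPM in control skin (2.54, 1.82 to 3.63), and *Ei24*, on 5 UMIs in control skin (2.78, 1.16 to 8.73). *Btg2*, an antiproliferative gene, was at 0.505 (0.329 to 0.802), just inside 2-fold. In retinol over UVR 11 were measured, 0 were higher and 3 lower, *Perp*, *Dcxr* and *Siva1*, where 4.23% of all genes were higher and 9.11% lower. The median was -0.40 against -0.05 over all genes. Not all of the list ran that way: *Sfn* was at 1.94 (1.42 to 2.64) and *Btg2* at 1.81 (1.37 to 2.39), both under 2-fold. *Perp*, which encodes a membrane protein of desmosomes, had 18.4 CPM in retinol-treated skin, against 56.3 CPM in UVR skin (0.326, 0.206 to 0.498). In HPR over UVR 11 were measured, 0 were higher and 1 lower, *Dcxr* at 0.359 (0.295 to 0.433), where 3.41% of all genes were higher and 9.21% lower, with a median of -0.49 against -0.13. *Dcxr* in retinol over UVR was 0.386 (0.323 to 0.459), so it took the side of *Phlda3* and *Aen* in these 3 ratios, which share the UVR section.

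In HPR over retinol 7 of these targets were measured, 0 were higher and 1 was lower, where 0.852% of all genes were higher and 1.84% lower. That gene was *Sfn*, which encodes a 14-3-3 protein of keratinocytes, with 26.4 CPM in HPR-treated skin and 63.6 CPM in retinol-treated skin (0.415, 0.270 to 0.625). *Btg2* was at 0.550 (0.387 to 0.773), and the list's median was -0.35 against -0.09 over all genes. Of the 12 genes for p53 and its regulators, only *Trp53*, the p53 gene itself, reached 100 UMIs, and only in retinol over UVR, where it had 26.9 CPM in retinol-treated skin, against 25.0 CPM in UVR skin (1.07, 0.699 to 1.63). The p53 protein is regulated mostly after translation, and its amount was not measured.

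Of 13 other cell-cycle inhibitors, 4 were measured in UVR over control. Among these, 1 was at least 2-fold higher and 0 lower, where 12.4% of all genes measured were higher and 7.61% lower. The list's median log2 ratio was 0.20, against 0.09 over all genes measured. *Cdkn2c*, a relative of *Cdkn2b* that also inhibits Cdk4 and Cdk6, was 2.01-fold higher (1.07 to 4.28), on 10 UMIs in control skin. The remaining values were 1.31 (0.722 to 2.60) for *Tob1*, 1.01 (0.662 to 1.62) for *Tob2* and 0.914 (0.757 to 1.11) for *Wee1*, a kinase that holds back mitosis. The same 4 genes were measured in both treated over UVR ratios and none reached 2-fold. Of all genes, 4.23% were higher and 9.11% lower in retinol over UVR, and 3.41% and 9.21% in HPR over UVR. The list's median log2 ratio was -0.44 in retinol over UVR, against -0.05 over all genes. In HPR over UVR it was -0.79, against -0.13. *Cdkn2c* was at 0.664 (0.483 to 0.902) in retinol over UVR and 0.531 (0.367 to 0.753) in HPR over UVR. It thus did not follow *Cdkn2b*, which was low in UVR skin. In HPR over retinol 2 of these inhibitors were measured, and neither reached 2-fold, where 0.852% of all genes were higher and 1.84% lower.

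Of 13 cyclins and kinases among the features, *Ccnd1* was the only one measured in UVR over control. It encodes cyclin D1, the partner of Cdk4 and Cdk6 that Cdkn2b protein counters. *Ccnd1* had 34.4 CPM in HPR-treated skin, 22.6 CPM in retinol-treated skin, 171 CPM in UVR skin and 30.7 CPM in control skin. UVR over control was 5.58 (3.01 to 11.7), retinol over UVR 0.132 (0.0892 to 0.189) and HPR over UVR 0.201 (0.143 to 0.275). It was high in the section where *Cdkn2b* was low. *Cdk4* was at 0.523 (0.317 to 0.832) in retinol over UVR and 0.838 (0.545 to 1.26) in HPR over UVR.

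The layouts of all members but *Ccng1* over sections and layers were compared with those of other genes by the correlation of log2 levels. The genes compared were 1356 in all, these members included, across 12 sums, 3 layers in each of 4 sections. These sums share libraries and depth, and the layers dominate, so the values are descriptions. The layout of *Cdkn1a* was most like that of *Dedd2* (r = 0.98), followed by *Hopx*, *Sowahc*, *Epn3* and *Cebpa*. *Cdkn2b* was most like *Tmem30b* (0.97), then *Mrgbp*, *Ndfip2*, *Ddr1* and *Fam83f*. *Bbc3* was most like *Rhot2* (0.97), then *Ring1*, *Tapbp*, *Pex6* and *Men1*, and *Mdm2* most like *Ubtd2* (0.88), then *Ski*, *Nrbp2*, *Brwd1* and *Hpcal1*. *Phlda3* and *Aen* had less close matches, with *Clasp1* at 0.81, then *Mt1*, *Ndufa12*, *Tomm6* and *Plp2* for *Phlda3*, and *Tle5* at 0.84, then *Hdgf*, *Bccip*, *Atp5d* and *Psmd4* for *Aen*. Among the members, *Cdkn1a* and *Cdkn2b* were at 0.87, *Bbc3* and *Cdkn2b* at 0.75, *Phlda3* and *Aen* at 0.45, and *Aen* and *Cdkn1a* at -0.52.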

How the data were processed

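Per the labels' protocols, fresh-frozen skin was cryosectioned and probe-based Visium libraries were made with the kit for fixed tissue. The values in the deposited matrices are raw counts of UMIs for each gene in each spot over tissue. The submitters' processing notes name Space Ranger 2.0.0, the build mm10 and Seurat 4.1.0. The largest gap in image rows separated the sections of an area. Spots with at least 200 UMIs were kept, and counts were summed per section or layer and scaled to CPM. Ratios of CPM carry 95% intervals by the exact binomial (Clopper-Pearson) method, and levels exact Poisson ones. A call needed a 2-fold ratio and at least 100 UMIs over both sections; a section with 0 UMIs was set to 3 counts. No test was possible with 1 section per group, and spots were not used as replicates.

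Each section was clustered on its own with scanpy 1.11.5 (10000 counts per spot, log scale, 2000 variable genes without the members and pathway lists, 20 principal components, 15 neighbours, Leiden resolution 0.5). Layers were set by a rule chosen after the clusters were seen: muscle where the muscle markers had a median log2 fold of at least 2, outer where the keratinocyte markers had a median above 0, and deep otherwise. No doublet caller was run, since spots hold several cells. All 7 members are named. Of each pathway list, the genes called at 2-fold in whole sections are named. Some, but not all, of the 2 highest and 2 lowest whole-section ratios per comparison are named as well. Likeness used log2(CPM + 1) of genes with at least 500 UMIs, over sums of at least 20000 UMIs. The members and lists were chosen with earlier results of these data known. Gene and promoter coordinates come from RefSeq (GRCm38.p6, the same assembly as mm10), where all 7 symbols matched. Alternatives covered spot and gene minimums, scaling, a pseudocount, image sides, layer weights, clustering resolution and the reading of upper. Python 3.11.15, scipy 1.17.1 and pandas 2.3.3 were used, and the ratio code was tested on simulated counts.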

Additional observations from a re-analysis of the deposited data

Results flagged for a closer look

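Some genes pointed in opposite directions in different layers of the same comparison, with intervals that leave out 1 on both sides. With 1 section per group, none of these differences between layers was tested. *Cdkn1a* in UVR over control was 1.52 in the outer layer, 0.682 in the deep layer and 0.499 in muscle. In retinol over UVR it was 0.724 in the outer layer and 1.70 in muscle. In HPR over UVR it was 0.611 in the outer layer, 0.874 in the deep layer and 2.56 in muscle, and in HPR over retinol 0.843, 0.820 and 1.5 in the same order. *Phlda3* in HPR over UVR was 0.385 in the outer layer, 0.406 in the deep layer and 2.13 in muscle. *Mdm2* in HPR over retinol was 0.764 in the outer layer and 1.47 in the deep layer. Muscle in UVR skin held 0 UMIs of the 6 hair follicle markers, and muscle in control skin 39. Muscle held 91 to 146 *Cdkn1a* UMIs in the 3 irradiated sections and 39 in control skin. *Krt5* in muscle was 7.42% of its outer level in HPR-treated skin, 6.40% in retinol-treated skin, 1.87% in UVR skin and 6.66% in control skin. The section with the lowest *Cdkn1a* level in muscle also had the lowest relative *Krt5* level there. The part of transcripts from neighbouring layers was not tested.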

How the results depend on the processing

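No paired analysis was possible because each group had 1 section. Over 8 alternatives of filter, scaling, pseudocount, image side and layer weight, no ratio of *Cdkn1a*, *Cdkn2b*, *Phlda3*, *Aen*, *Bbc3* or *Mdm2* that was called at 2-fold changed direction. Reading upper from the spot grid exchanged the groups. Whole-section log2 ratios in UVR over control then were 1.48 for *Cdkn2b*, -1.59 for *Phlda3* and -1.27 for *Aen*. In retinol over UVR they were -0.17 for *Cdkn2b*, 0.51 for *Phlda3*, -0.0089 for *Aen* and 0.32 for *Bbc3*. In HPR over UVR they were -0.10 for *Cdkn2b*, 0.26 for *Phlda3*, 0.32 for *Aen* and 0.26 for *Bbc3*. All 2-fold calls of members in the whole-section treated over UVR ratios were thus lost on the grid reading. Outer-layer values, an alternative added after seeing the data, were 1.90 for *Cdkn2b*, -1.63 for *Phlda3*, -1.73 for *Aen* and 1.20 for *Bbc3* in UVR over control, -0.47, 0.25, 0.073 and -0.13 for the same genes in retinol over UVR, and -0.37, 0.10, 0.64 and -0.15 in HPR over UVR. Over whole sections, the median of the 7 genes in HPR over retinol was 0.15 on the grid reading, against -0.15 on the image reading. The shares of genes at least 2-fold apart on the grid reading were 7.61% higher and 12.4% lower in UVR over control, 7.25% higher in retinol over UVR, 11.9% higher in HPR over UVR, and 1.84% higher and 0.852% lower in HPR over retinol. Fewer or more genes enter at other UMI minimums. With at least 20 UMIs the shares were 17.4% lower in UVR over control, 5.93% higher and 14.4% lower in HPR over UVR, and 3.79% higher and 4.54% lower in HPR over retinol. With at least 500 UMIs they were 4.27% lower in UVR over control and 0.131% higher in HPR over retinol. *Cdkn2b* stayed higher in each treated over UVR ratio there, *Bbc3* being under that minimum. At a fold of 1.5, which more genes pass, *Bbc3* (0.571) joined *Cdkn2b* as lower in UVR over control. *Aen* (0.518) joined *Phlda3* as lower in retinol over UVR at that fold. Shares of all genes are not given beside the members named at 500 UMIs or at a fold of 1.5, so these are descriptions only. On the left image side the calls of *Phlda3* in UVR over control, of *Bbc3* in retinol over UVR and of *Cdkn2b*, *Bbc3*, *Phlda3* and *Aen* in HPR over UVR fell under 2-fold. The median of gene ratios in HPR over UVR was -0.13 on the log2 scale, and scaling by it took *Phlda3* to -0.96, just under 2-fold. Equal layer weights took *Bbc3* in retinol over UVR to 0.96. Control skin, with 326095 UMIs, limits the precision of every ratio against it.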

Other observations

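The *Lor*-led regions of treated skin, which are part of its outer layer, were also set against the *Lor*-led region of control skin. That region is all of the outer layer of control skin at the clustering resolution used. *Cdkn2b* was at 0.678 (0.554 to 0.831) in HPR over control and 0.622 (0.496 to 0.781) in retinol over control, and *Bbc3* at 0.419 (0.251 to 0.697) and 0.570 (0.337 to 0.960). *Cdkn1a* was at 1.16 (1.07 to 1.25) and 1.30 (1.20 to 1.41). *Phlda3* was at 1.15 (0.795 to 1.70) and 0.889 (0.581 to 1.37), and *Aen* at 0.817 (0.457 to 1.51) and 1.02 (0.556 to 1.92). Over the whole outer layer, *Cdkn2b* was at 0.722 (0.605 to 0.866) in HPR over control and 0.772 (0.647 to 0.926) in retinol over control, *Bbc3* at 0.916 (0.627 to 1.37) and 0.901 (0.615 to 1.35), and *Cdkn1a* at 0.927 (0.863 to 0.996) and 1.10 (1.02 to 1.18). The *Bbc3* intervals below 1 and the *Cdkn1a* value above 1 in HPR over control therefore belong to the comparison of part of the outer layer with all of it. Whole outer layers did not show them. Within treated skin, the *Lor*-led region was lower in *Bbc3* than the other outer region, at 0.302 with HPR and 0.530 with retinol. It was higher in *Cdkn1a*, at 1.64 and 1.31. The part of this difference between regions in the ratios against control was not tested. Treated skin and control skin lay on different capture areas, so treatment and area cannot be told apart here.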
